A study of Mus musculus with 4 samples.

Results

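The carbonic anhydrases are zinc enzymes that interconvert carbon dioxide and bicarbonate, and 9 of their genes (Car1, Car2, Car3, Car4, Car7, Car8, Car9, Car12 and Car13) are described here in mouse colon. They were taken by symbol from a table of 46095 gene symbols, and all 9 were found. The table holds read counts of total RNA from colon of C57BL/6 mice at postnatal day 21, with 2 libraries of wild-type mice (WT) and 2 of Esr2-/- mice, labelled Esr2-KO, which lack estrogen receptor β. The labels do not give the deleted part of Esr2, the stretch of colon or whether each library is a different animal, so that the tests measure only the spread between these libraries. The design text speaks of triplicates, and 2 libraries per genotype were analysed here. Neither a treatment nor a transgene is named for any group, and the question that the design implies is how loss of the receptor alters colon mRNA.

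In the colon these enzymes supply the bicarbonate and protons that surface cells exchange for chloride and sodium as they take up salt and water. Car1 and Car2 work in the cytosol, Car4 is anchored by lipid to the outer face of the apical membrane, and Car9 and Car12 span the membrane with their catalytic part outside the cell. Car8 lacks a zinc-binding residue and does not hydrate carbon dioxide. Car9 is known as a target of hypoxia-inducible factors.

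Depth was alike in the 4 libraries, which held 30826790 to 33709643 counts, and 3 counts, taken as the floor, correspond to 0.0826 to 0.114 CPM (counts scaled to the library total, after TMM scaling). Esr2 itself had 21 and 13 counts in WT against 6 and 16 in Esr2-KO (log2 fold change -0.32 ± 0.77, SE, edgeR adjusted p = 0.854), which at this depth does not check the labels. Esr2-KO 2 stood apart by its transcripts of the exocrine pancreas, which summed to 252511 CPM over 31 listed genes against 2396, 2792 and 3934 CPM in WT 1, WT 2 and Esr2-KO 1. In WT 1, WT 2 and Esr2-KO 1 the largest part of the sum was Klk1, at 1930, 2267 and 2043 CPM. Pnlip was also higher in Esr2-KO 1 than in WT, with 8.34 and 2.21 CPM in WT against 61.8 in Esr2-KO 1 and 31807 in Esr2-KO 2. Colonocyte genes were present in every library, with 18158 to 19232 CPM summed over 17 listed. By edgeR 2 were higher and 2 lower in Esr2-KO. At an edgeR unadjusted p under 0.05, 5 were higher and 8 lower. DESeq2 called 5 higher and 6 lower, and limma-voom 2 higher and 3 lower. The sum joins changes in both directions, with 8 positive and 9 negative log2 fold changes. Of 9 tested crypt and dividing cell genes 1 was higher and 0 lower, by edgeR and by limma-voom. DESeq2 called 2 higher and 5 lower. The dividing cell genes Mki67, Top2a, Ccnb1, Cdk1 and Birc5 had log2 fold changes of -1.33 to -0.99. The crypt genes Ascl2, Smoc2, Lgr5 and Axin2 had 1.07, 0.64, 0.14 and -0.01. The groups did not overlap in 7 of the 9, against 54.7% of all tested genes. The sum of the list was 652 and 470.1 CPM in WT against 372 and 264 in Esr2-KO. All 13 enteric neuron and glia genes had negative values and none passed (edgeR; 7 at an unadjusted p under 0.05, 1 lower by DESeq2, 0 by limma-voom), with sums of 167 and 173 CPM in WT against 126 and 115 in Esr2-KO. Genes that mark position also differed between the groups. Of 6 posterior Hox genes 2 were higher in Esr2-KO and 0 lower by edgeR, against 1.3% of all tested genes higher. At an edgeR unadjusted p under 0.05, 5 were higher, and DESeq2 called 2 and limma-voom 4 higher. Their sums were 99.5 and 201 CPM in WT against 811 and 921 in Esr2-KO. Of 4 tested Hox genes of more anterior expression 3 were lower and 0 higher by edgeR, against 1.39% of all tested genes lower. At an edgeR unadjusted p under 0.05, 4 were lower. Of the 6 listed, DESeq2 called 4 lower and limma-voom 1. The sums were 72.1 and 117 CPM in WT against 40.6 and 42.4 in Esr2-KO. WT 1 and WT 2 also differed from each other in both Hox sums. The part of these differences in colonocyte, dividing cell, neuron and Hox genes in the values that follow was not tested.

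Promoter sequences are shown for 3 members: Car9 as the hypoxia target, and Car4 and Car12 as the membrane enzymes with the highest and lowest log2 fold change, in which elements for hypoxia and for estrogen receptors were sought. Promoters (250 bases before to 50 bases after an annotated start) were held for 4 of the 9 members in the RefSeq table of GRCm38.p6. Capitals mark the hypoxia response core ACGTG and the estrogen response core GGTCA, each sought on both strands, so that CACGT and TGACC count as well.
Car9, chr4:43506776-43507075, plus strand: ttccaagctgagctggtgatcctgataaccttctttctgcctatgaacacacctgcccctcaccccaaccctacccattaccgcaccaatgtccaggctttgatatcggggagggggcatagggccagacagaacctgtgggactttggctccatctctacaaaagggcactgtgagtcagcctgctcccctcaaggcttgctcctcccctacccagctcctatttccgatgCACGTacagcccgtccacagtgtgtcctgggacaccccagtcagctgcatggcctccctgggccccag
Car4, chr11:84957504-84957803, plus strand: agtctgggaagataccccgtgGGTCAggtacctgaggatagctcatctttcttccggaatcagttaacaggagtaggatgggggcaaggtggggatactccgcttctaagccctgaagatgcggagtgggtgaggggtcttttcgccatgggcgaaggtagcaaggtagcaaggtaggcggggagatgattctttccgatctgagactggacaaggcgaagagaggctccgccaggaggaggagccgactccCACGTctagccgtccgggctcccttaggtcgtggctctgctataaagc
Car12, chr9:66713436-66713735, plus strand: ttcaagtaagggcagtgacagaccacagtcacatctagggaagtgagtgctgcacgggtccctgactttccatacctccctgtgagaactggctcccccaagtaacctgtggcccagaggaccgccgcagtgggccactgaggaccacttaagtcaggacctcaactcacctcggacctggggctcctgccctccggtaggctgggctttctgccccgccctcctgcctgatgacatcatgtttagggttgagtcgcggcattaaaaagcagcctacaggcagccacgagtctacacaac

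The Car9 promoter held 1 hypoxia core, beginning at position -18 from the annotated start. The human promoter is known for a hypoxia element close to its start. The Car4 promoter held 1 hypoxia core at position 2 and 1 estrogen response core at position -229, and the Car12 promoter held neither. A full estrogen response element, GGTCANNNTGACC, was in none of the 3, nor in the 3 promoters held for Car7, of which 1 held an estrogen response core at position -159 and none a hypoxia core. Among 32851 promoters of 300 bases the hypoxia core was found in 19.6%, the estrogen response core in 40.5% and the full element in 0.07%. A match describes these letters only, and a lack of match says nothing about binding elsewhere.

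Esr2-KO colon held less mRNA of Car8 and of Car1 than WT colon, and these 2 were the members that passed the test. Both were lower, and 0 of 9 were higher. Over the whole table, 2.69% of 17169 tested genes passed an adjusted p of 0.05, 1.3% as higher and 1.39% as lower in Esr2-KO. The remaining 7 members did not pass: Car4 and Car2 had positive log2 fold changes of 1.02 and 0.62, Car12 and Car13 negative values of -2.21 and -1.04, and Car3, Car7 and Car9 had -0.58 ± 0.59, 0.51 ± 0.44 and -0.14 ± 0.17 (SE). At an unadjusted p under 0.05, 2 members were higher and 4 lower, against 9.69% and 10.9% of all tested genes. DESeq2 called 2 higher and 3 lower, against 4.88% and 5.31% of the genes it gave an adjusted p, and limma-voom 1 higher and 3 lower, against 1.77% and 1.76%. The groups did not overlap in 7 of the 9 members, against 54.7% of all tested genes. The median log2 fold change of the 9 was -0.58, and that of all tested genes was 0.00. All 9 had at least 30 counts in every library and passed the filter on low counts. In whole tissue, fewer cells of a type and less mRNA per cell cannot be told apart, for these values and those below.

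**Figure D1:**
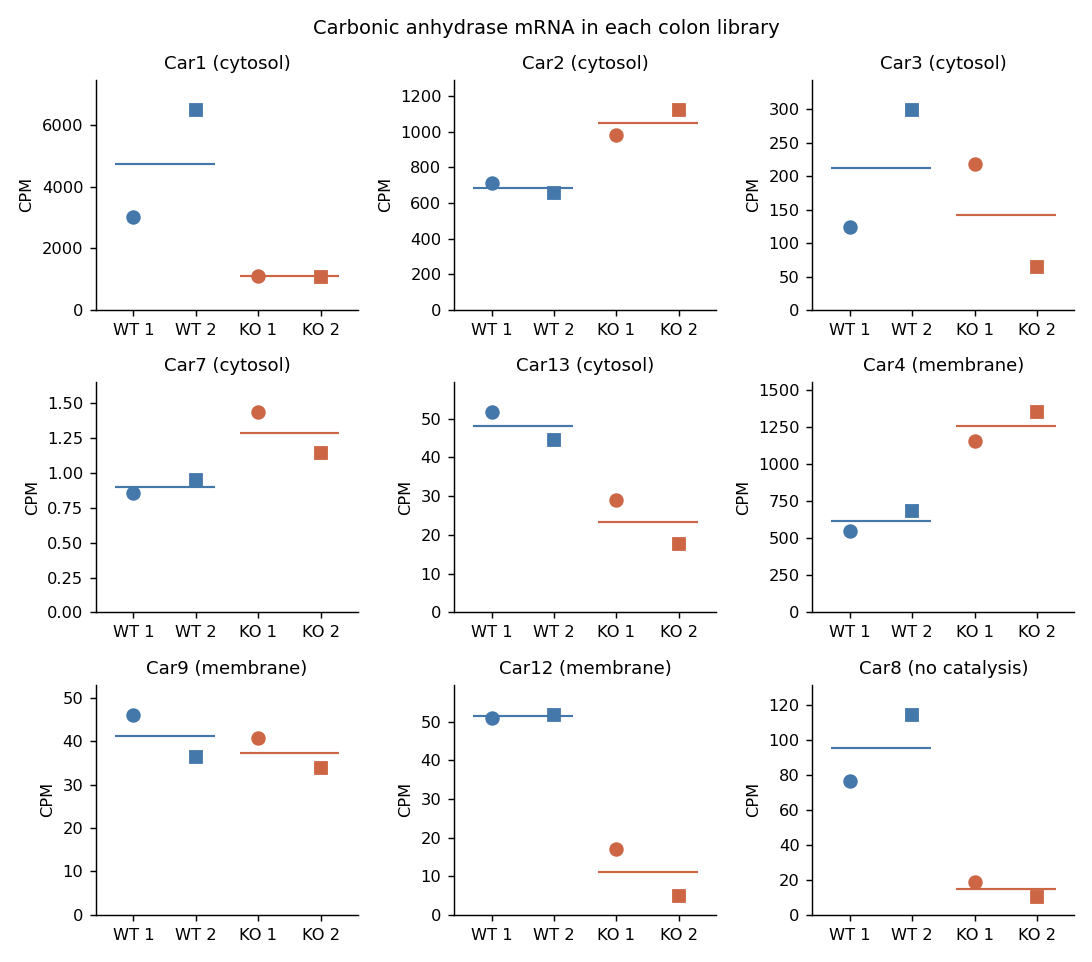
CPM of each carbonic anhydrase in WT 1 and 2 (blue) and Esr2-KO 1 and 2 (KO, orange), 1 point per library, with the group mean as a line and axes that start at 0. Car1, Car8, Car12 and Car13 lie lower and Car2, Car4 and Car7 higher in both Esr2-KO libraries than in both WT libraries. The groups overlap in Car3 and Car9.

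Levels were compared between members only per kilobase of exon (CPM per kb). In WT, Car1 stood far above the others, at 2411 and 5214 CPM per kb. Car4 followed at 435 and 546, and Car2 at 398 and 368 CPM per kb, with Car4 above Car2 in both libraries. Car3 was next at 74.3 and 178 CPM per kb. Car8 (19.9 and 29.7), Car13 (22.5 and 19.4) and Car9 (22.8 and 18.0 CPM per kb) overlapped, so that their order in WT is within the spread of the libraries. Car12 lay below them at 13.7 and 13.9, and Car7 was lowest at 0.414 and 0.460 CPM per kb.

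In Esr2-KO the order at the top differed. Car4 was first in both libraries, at 921 and 1073 CPM per kb, before Car1 at 893 and 869 and Car2 at 548 and 628 CPM per kb. Car1 exceeded Car4 per kb by 5.55-fold in WT 1 and 9.55-fold in WT 2, while Car4 exceeded Car1 by 1.03-fold in Esr2-KO 1 and 1.24-fold in Esr2-KO 2. These ratios are formed within a library and do not depend on its scaling. With 2 libraries against 2, an exact permutation test (two-sided) could not give a p below 0.333, so the ratios are given as a description. At the low end, Car8 (4.90 and 2.67) and Car12 (4.6 and 1.33 CPM per kb) overlapped in Esr2-KO.

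**Figure D2:**
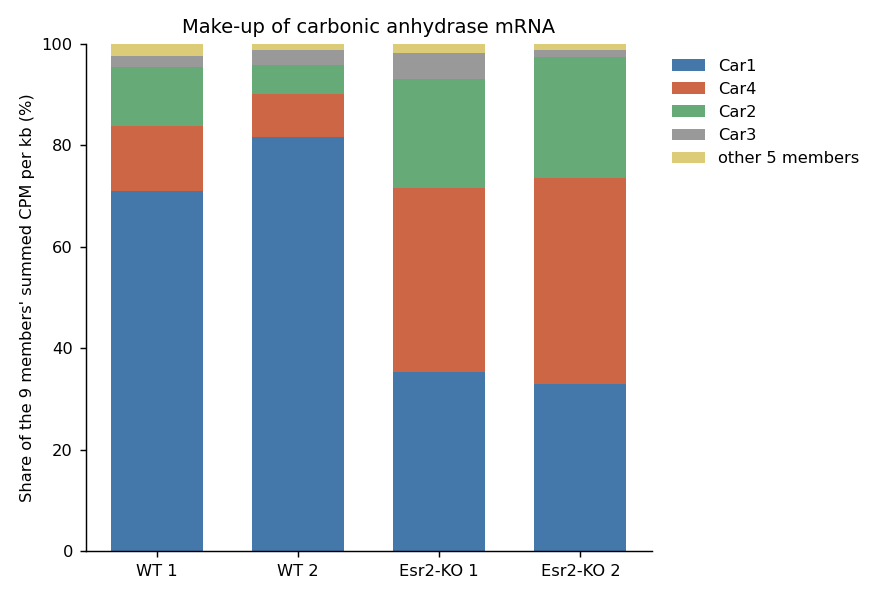
Share of each member in the summed CPM per kb of the 9 carbonic anhydrases, by library, with Car7, Car8, Car9, Car12 and Car13 joined. Car1 makes up 71.0% and 81.6% in WT 1 and 2 and 35.2% and 32.9% in Esr2-KO 1 and 2, and Car4 12.8% and 8.54% against 36.3% and 40.7%.

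Counts of the whole family, 16 genes with the 7 others below, took 0.498% and 0.876% of all counts in WT 1 and WT 2 (95% Wilson intervals 0.495 to 0.5 and 0.873 to 0.879, counting error only). In Esr2-KO 1 and Esr2-KO 2 they took 0.371% and 0.316% (0.369 to 0.373 and 0.314 to 0.318). Pancreas genes took 21.6% of the counts of Esr2-KO 2, and in scaled CPM the order of these 2 libraries turned (Esr2-KO 1 at 3580.01 and Esr2-KO 2 at 3693). The most abundant member was the 13th and 8th most abundant of all genes in WT 1 and WT 2 (Car1), and the 60th and 62nd in Esr2-KO 1 and Esr2-KO 2 (Car4).

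Among the cytosolic enzymes, Car1 is the low-activity form that is abundant in colon epithelium and red blood cells. It lies on chromosome 3 from 14766216 to 14808368, minus strand (ENSMUSG00000027556.15, GENCODE M21, GRCm38). Its counts were 109024 and 225829 in WT against 38040 and 28512 in Esr2-KO, or 3002 and 6491 against 1112 and 1082 CPM. Both WT libraries were higher than both Esr2-KO libraries, and the spread lay within WT, where WT 2 held 2.16 times the level of WT 1. Group means were 4747 ± 2467 CPM in WT and 1097 ± 21.7 CPM in Esr2-KO (SD, n = 2). On the log2 scale the difference was -2.11 ± 0.39 (SE), or 4.33-fold lower, with an edgeR quasi-likelihood adjusted p of 0.0469. By p, Car1 ranked 417th of 17169 genes, near the threshold. The call ended without Esr2-KO 2 (-2.09, adjusted p = 0.0560), where pancreatic transcripts were high. It also ended with a filter of 1 CPM in 2 libraries (0.0518), and over all alternatives the adjusted p ran from 1.69e-05 to 0.0742. Without WT 2 the value was -1.43 (adjusted p = 0.0341), still past the threshold.

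Red blood cells also carry Car1 and Car2. Of 11 listed red cell genes 8 were tested and none passed (edgeR; 3 at an unadjusted p under 0.05, none by DESeq2 or limma-voom). Their sums were 19.99 and 100.3 CPM in WT against 149 and 168 in Esr2-KO, with WT 2 above WT 1 and Esr2-KO above WT. Car1 was likewise higher in WT 2 than in WT 1, but lower in Esr2-KO than in WT. Car2 was likewise higher in Esr2-KO than in WT, but lower in WT 2 than in WT 1. Most of the sum was globin: Hbb-bs had 8.10 and 42.7 CPM in WT against 69.2 and 90.1 in Esr2-KO, and Hba-a1 2.92 and 18.3 against 26.1 and 39.5. Slc4a1 and Epb42, genes of the red cell membrane, had at most 0.138 and 0.0292 CPM in any library. The part of red cells in the Car1 and Car2 values was not tested.

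Car2, the fast cytosolic form, lies on chromosome 3 from 14886273 to 14900770 on the plus strand. Its levels were 711 and 659 CPM in WT against 979.5 and 1123 in Esr2-KO. Both Esr2-KO libraries were higher than both WT libraries, by more than either group's spread. The difference of 0.62 ± 0.19 (log2, SE, 1.53-fold) did not pass (edgeR adjusted p = 0.136). It passed in 1 of 14 alternatives, with DESeq2 (1.53e-04), and over them the adjusted p reached 0.552.

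Car13, a further cytosolic enzyme, lies on chromosome 3 from 14641727 to 14663002 on the plus strand. Its levels were 51.6 and 44.5 CPM in WT against 29.1 and 17.6 in Esr2-KO, with no overlap. At -1.04 ± 0.24 (log2, SE) the difference did not pass (edgeR adjusted p = 0.0758). It passed in 5 of 14 alternatives, among them DESeq2 (6.72e-04) and the fit without Esr2-KO 1 (8.89e-04, log2 fold change -1.45), with a range of adjusted p from 3.26e-04 to 0.294.

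Car3 is a cytosolic enzyme of low activity that is abundant in adipocytes and skeletal muscle. It lies on chromosome 3 from 14863512 to 14872523 on the plus strand. Levels of 125 and 299 CPM in WT against 218 and 64.6 in Esr2-KO overlapped, and the libraries of a group differed by 2.40-fold in WT and 3.38-fold in Esr2-KO. Between the groups the log2 fold change was -0.58 ± 0.59 (edgeR adjusted p = 0.624). Its direction turned without WT 2 (0.20) and without Esr2-KO 2 (0.048), and without Esr2-KO 1 it passed (-1.71, adjusted p = 0.0272, the lowest of a range that reached 0.976). Adipocyte markers ordered the libraries as Car3 did: the sum of 10 such genes was 436 and 829.8 CPM in WT against 666 and 321 in Esr2-KO. Car3 stood at 0.286, 0.361, 0.328 and 0.202 of that sum in WT 1, WT 2, Esr2-KO 1 and Esr2-KO 2. All 10 adipocyte genes were tested and 0 passed (edgeR; 1 at an unadjusted p under 0.05, 0 by DESeq2 or limma-voom), and Adipoq had 19.6, 54.3, 44.3 and 10.5 CPM in the same order. Striated muscle genes summed to 26.4 and 31.4 CPM in WT against 19.6 and 21.96 in Esr2-KO over 11 listed, most of it Ckm with 19.2, 15.1, 10.8 and 14.7 CPM and Acta1 with 3.74, 12.04, 4.09 and 2.81 CPM in WT 1, WT 2, Esr2-KO 1 and Esr2-KO 2, while Myh4 was at 0 in all 4. The part of adipose tissue and muscle in the Car3 values was not tested.

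Car7, a cytosolic enzyme best known from brain, was close to the limit of these data, with 31 and 33 counts in WT against 49 and 30 in Esr2-KO. It lies on chromosome 8 from 104534689 to 104550343 on the plus strand. In CPM this was 0.854 and 0.949 against 1.43 and 1.14. Its log2 fold change of 0.51 ± 0.44 did not pass (edgeR adjusted p = 0.555) and was not detectable as a difference at this depth.

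Of the enzymes at the cell surface, Car4 provides bicarbonate at the apical membrane. It lies on chromosome 11 from 84957786 to 84966044 on the plus strand (ENSMUSG00000000805.18). Its counts were 19825 and 23846 in WT against 39553 and 35536 in Esr2-KO, or 546 and 685 against 1156 and 1348 CPM. Every Esr2-KO value was above every WT value. The difference of 1.02 ± 0.21 (log2, SE, 2.03-fold) missed the threshold (edgeR adjusted p = 0.0596). It passed in 6 of 14 alternatives, including limma-voom (0.0287) and the fit without 31 pancreas genes (0.0349). Its value in the alternatives ran from 0.85 to 1.22, and its adjusted p from 1.57e-08 to 0.219.

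Car12, a transmembrane enzyme of the basolateral side of epithelial cells, lies on chromosome 9 from 66713686 to 66766845 on the plus strand. Its counts were 1854 and 1803 in WT against 585 and 130 in Esr2-KO. In CPM the WT libraries were nearly equal, at 51.0 and 51.8, and the Esr2-KO libraries lay far below them but apart from each other, at 17.1 and 4.93. At -2.21 ± 0.495 (log2, SE) the difference did not pass (edgeR adjusted p = 0.0714). Esr2-KO 1 lay at -1.59 and Esr2-KO 2 at -3.37 from the mean of WT on the log2 scale. The log2 fold change was -3.38 without Esr2-KO 1 and -1.58 without Esr2-KO 2. In these fits the spread of Car12 itself comes only from the nearly equal WT libraries, so their p-values cannot show whether the difference holds. Without WT 1 or WT 2 the log2 fold change was -2.23 and -2.19.

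Esr2-KO 2, the lower library for Car12, also had the lowest sum of the goblet cell genes. Their sum over 10 listed was 24281 and 22665 CPM in WT, 20619 in Esr2-KO 1 and 14799 in Esr2-KO 2. Of the 10, 1 was lower and 0 higher by edgeR, and 8 had negative and 2 positive log2 fold changes. At an edgeR unadjusted p under 0.05, 4 were lower and 0 higher. DESeq2 called 2 lower and limma-voom 1, with 0 higher in both. Clca1 had 9580, 9235, 9476 and 3312 CPM in WT 1, WT 2, Esr2-KO 1 and Esr2-KO 2. Others were lower in both Esr2-KO libraries: Muc2 had 1945, 1549, 818 and 346 CPM, and B3gnt6, the edgeR call, 78.2, 57.1, 4.68 and 0.910 CPM. The 2 with positive values did not follow the sum: in the same order, Zg16 had 5719, 5073, 5188 and 8544 CPM, and Tff3 1021, 1106, 1287 and 1157 CPM. The part of goblet cell genes in the Car12 values was not tested.

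Car9, the hypoxia-induced transmembrane enzyme whose promoter is printed above, lies on chromosome 4 from 43506966 to 43513729 on the plus strand. Its levels were 46.1 and 36.3 CPM in WT against 40.8 and 33.7 in Esr2-KO, and the groups overlapped. A log2 fold change of -0.14 ± 0.17 did not pass (edgeR adjusted p = 0.671), and it turned to 0.037 without WT 1. The antisense gene Gm12454 shares 145 exonic bases with Car9 in GENCODE M21, and the sources used here do not say whether counting used strand.

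Of 20 other hypoxia targets, all tested, 2 were higher in Esr2-KO and 0 lower, with a median log2 fold change of 0.27. At an unadjusted p under 0.05, 6 were higher and 1 lower, DESeq2 called 4 higher and 1 lower, and limma-voom 2 higher and 0 lower. The edgeR calls were Egln3, a prolyl hydroxylase that limits hypoxia-inducible factors (1.95 ± 0.12, edgeR adjusted p = 0.00699), and the mitophagy receptor Bnip3 (1.11 ± 0.17, adjusted p = 0.0305). Egln3 had 37.7 and 38.1 CPM in WT against 137 and 156 in Esr2-KO. The call of Bnip3 ended without WT 1 (0.137) or WT 2 (0.0635), within a range of 2.27e-06 to 0.137.

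Car8, the family member without catalytic activity, which is known to bind the inositol trisphosphate receptor, had the lowest p of the 9. It lies on chromosome 4 from 8143362 to 8239041 on the minus strand (ENSMUSG00000041261.9). There were 2784 and 3985 counts in WT against 646 and 271 in Esr2-KO, or 76.7 and 115 against 18.9 and 10.3 CPM. Both Esr2-KO libraries lay below both WT libraries, and libraries of a group differed by 1.49-fold in WT and 1.84-fold in Esr2-KO. The group means were 95.6 ± 26.8 and 14.6 ± 6.09 CPM (SD, n = 2). The difference was -2.71 ± 0.32 (log2, SE), 6.53-fold lower, with an edgeR quasi-likelihood adjusted p of 0.0200, and Car8 ranked 74th of 17169 genes by p. It passed in all 14 alternatives, with values from -3.21 to -2.33 and an adjusted p of at most 0.0276. Without Esr2-KO 2 it was -2.33 (adjusted p = 0.00309).

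**Figure D3:**
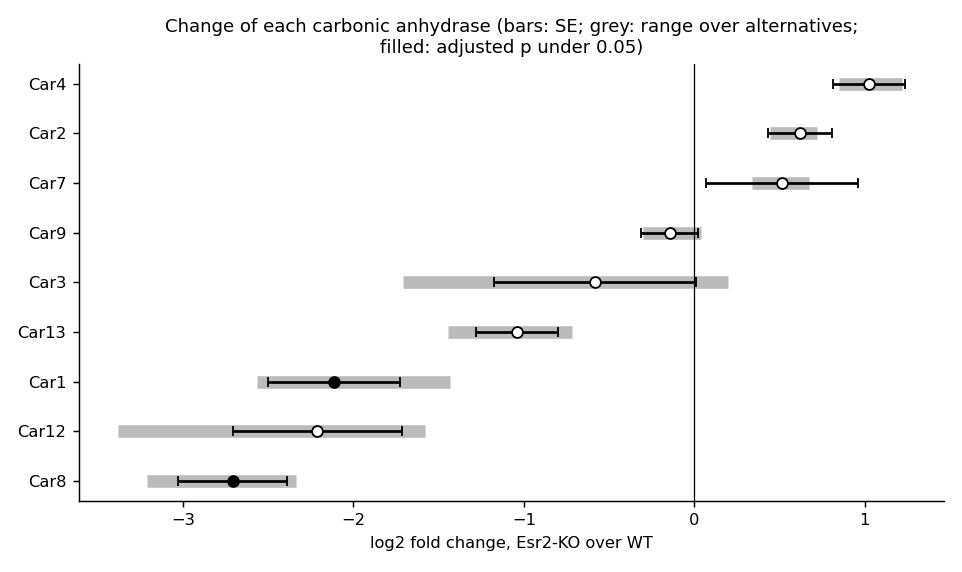
Log2 fold change of Esr2-KO over WT for each carbonic anhydrase, with its standard error (n = 2 per group), filled where the adjusted p was under 0.05, and as a grey bar the range over the alternative settings. Car8 (-2.71) and Car1 (-2.11) are filled, Car12 (-2.21) and Car3 (-0.58) have the longest grey bars, and the grey bars of Car3 and Car9 cross 0.

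The genes with the profile most like that of each called member were found by the distance of log2 CPM relative to the WT mean, over the 4 libraries and 11553 candidates. For Car8 these were the nuclear receptor coactivator gene Ncoa7 (distance 0.28), the C-type lectin gene Clec2e (0.44) and the prolactin receptor Prlr (0.44). Ncoa7 had 78.6 and 99.2 CPM in WT against 15.6 and 10.5 in Esr2-KO. For Car1 they were LOC108168395 (0.36), the retinaldehyde dehydrogenase Aldh1a1 (0.46) and Ifit1bl2 (0.53). Aldh1a1 had 168 and 235 CPM in WT against 54.4 and 47.2 in Esr2-KO. With 4 libraries a small distance is a description only.

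Car13, Car1, Car3 and Car2 lie in that order within 259.0 kb of chromosome 3, from 14641727 to 14900770. Of the 4 neighbours Car1 was lower in Esr2-KO, while Car13 at -1.04, Car3 at -0.58 and Car2 at 0.62 did not pass. Of 5 other tested genes within 500 kb, 0 passed (edgeR), and their log2 fold changes ran from -3.12 to 0.04. The lowest of these, the predicted gene Gm5843 between Car13 and Car1, had 0.798 and 4.23 CPM in WT against 0.234 and 0.341 in Esr2-KO (edgeR adjusted p = 0.114), and was named after its values were seen.

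The 7 other carbonic anhydrase genes gave little mRNA. Car5b, a mitochondrial enzyme, had 4.24 and 4.80 CPM in WT against 4.21 and 3.53 in Esr2-KO (log2 fold change -0.22 ± 0.27, edgeR adjusted p = 0.686). Car11, a form without catalytic activity, had 3.14 and 2.18 against 1.52 and 3.11 CPM, and the transmembrane form Car14 had 0.606 and 0.805 against 0.234 and 1.06 CPM, both with overlapping groups. None of these 3 tested genes passed, at an unadjusted p under 0.05 or with DESeq2 or limma-voom either, and Car14 shares exonic bases with Aph1a on the other strand. The other 4 did not pass the filter on low counts. Mitochondrial Car5a had 1, 2, 6 and 4 counts in WT 1, WT 2, Esr2-KO 1 and Esr2-KO 2. Car10 had 3, 7, 0 and 1 counts, and Car6 and Car15 had at most 1 and 2 counts in any library.

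Carriers that trade bicarbonate and protons across the membrane were counted in lists. Of 5 tested genes of chloride and bicarbonate exchange none passed by edgeR, with a median of 0.14; 3 had an unadjusted p under 0.05, DESeq2 called 1 higher and 1 lower, and limma-voom 0. The exchanger Slc26a3, which takes up chloride from the colon lumen for bicarbonate, had 664 and 480.5 CPM in WT against 1087 and 905 in Esr2-KO (0.80 ± 0.23, edgeR adjusted p = 0.119). It passed in 2 of 14 alternatives, DESeq2 (3.19e-04) and no filter on low counts (0.0184), and its highest adjusted p was 0.4003. None of 3 tested sodium bicarbonate cotransporters passed by edgeR, DESeq2 or limma-voom (median -0.56, 2 at an unadjusted p under 0.05), and Slc4a7 was at -0.56 ± 0.22 (edgeR adjusted p = 0.219).

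None of 5 tested genes of sodium and proton exchange passed by edgeR, DESeq2 or limma-voom, with a median of -0.18 and 1 gene at an unadjusted p under 0.05. The apical exchanger Slc9a3 had 283 and 164 CPM in WT against 104 and 34.6 in Esr2-KO, with no overlap (-1.69 ± 0.50, edgeR adjusted p = 0.128). It passed in 3 of 14 alternatives, among them the fit without Esr2-KO 1 (-2.69, 5.69e-04), with adjusted p from 1.40e-04 to 0.434. Without Esr2-KO 2 its value was -1.10 (0.0994) and without WT 1 -1.24 (0.434). Among 5 tested pump genes none passed by edgeR, with a median of 0.44; 2 had an unadjusted p under 0.05, DESeq2 called 2 higher and limma-voom 0. The proton pump subunit gene Atp6v0a4 had 1.57 and 1.24 CPM in WT against 0.351 and 0.341 in Esr2-KO (-2.01 ± 0.51, edgeR adjusted p = 0.0922).

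Of 5 monocarboxylate transport genes 1 was lower and 0 higher, with a median of 0.16. That was Slc16a7, a lactate and pyruvate carrier, with 19.3 and 15.3 against 8.65 and 8.12 CPM (-1.05 ± 0.20, edgeR adjusted p = 0.0481). Its call ended in 4 of 14 alternatives, among them without WT 1 (0.248), without WT 2 (0.0799) and without Esr2-KO 2 (0.0690). At an unadjusted p under 0.05 1 gene of the list was higher and 1 lower, as by DESeq2, and limma-voom called 0 higher and 1 lower. Of 6 genes of anion channels and chloride uptake 1 was higher and 0 lower, with a median of -0.46; 2 were higher and 3 lower at an unadjusted p under 0.05, DESeq2 called 2 higher and 1 lower, and limma-voom 2 higher and 0 lower. The calcium-activated chloride channel Ano1 had 98.3 and 118 CPM in WT against 229 in both Esr2-KO libraries (1.08 ± 0.14, edgeR adjusted p = 0.0221), and its call ended without WT 1 (0.0604).

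**Figure D4:**
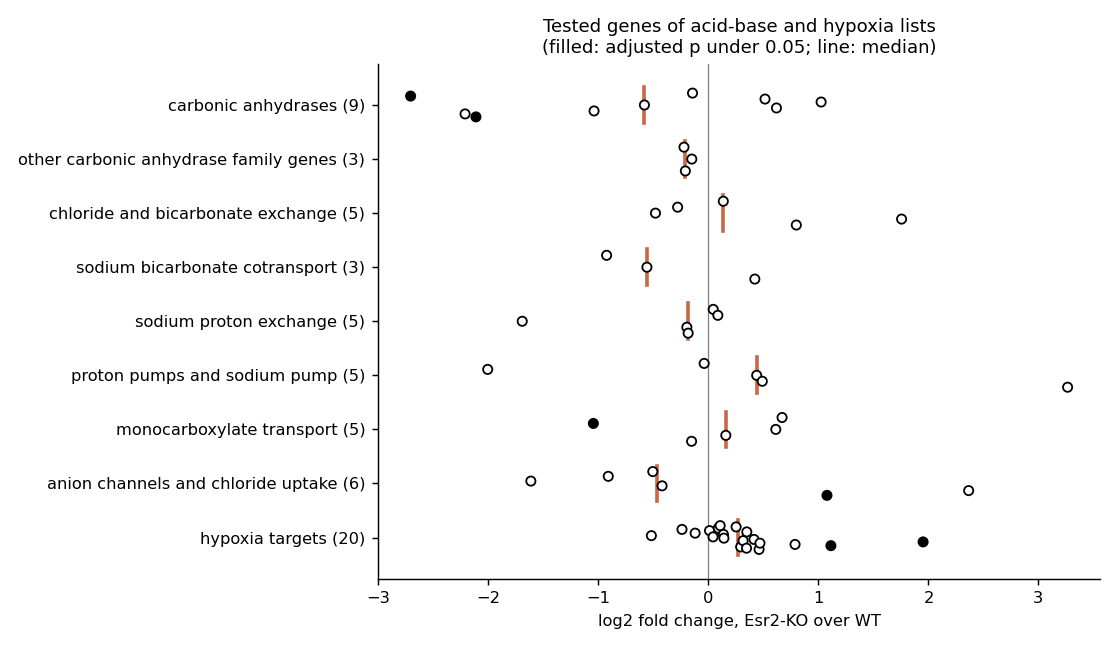
Log2 fold change of Esr2-KO over WT for every tested gene of the carbonic anhydrases, the other family genes, the acid-base lists and the hypoxia targets, 1 point per gene with the number tested in brackets, filled where the adjusted p was under 0.05, and the list median as a line. The filled points are Car8, Car1, Slc16a7, Ano1, Egln3 and Bnip3, and the medians lie between -0.58 and 0.44.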

How the data were processed

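The submitters' processing notes name the aligner HISAT2 and the mouse build mm10. Libraries were depleted of ribosomal RNA and made with a directional kit, per the labels' protocols. The deposited values are whole-number counts per gene symbol with no normalization. For the counting program, annotation, strand use and filters, the sources used here give nothing.

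From these counts, genes were kept with filterByExpr (minimum count 10, minimum total 15), which left 17169, scaled by TMM and tested across all genes with edgeR 4.0.16 in R 4.3.3 (glmQLFit, glmQLFTest, two-sided, genotype as the factor, Benjamini-Hochberg adjusted p under 0.05). CPM uses TMM-scaled totals, and standard errors come from the coefficient and its F statistic. Exon lengths are unions of exons of coding transcripts in the basic GENCODE M21 set (GRCm38). Log2 CPM for distances used a prior count of 2, among genes of mean log2 CPM of at least 2, without predicted (Gm) and Riken symbols. The procedure was tested on simulated counts. Libraries of a group differed beyond sampling noise (chi-square per degree of freedom 42.7 in WT and 519 in Esr2-KO).

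The members and gene lists were chosen with earlier results of these data known. Named genes are the 9 members, the family, up to 4 called genes per acid-base or hypoxia list or otherwise the lowest p, and the 3 genes most alike to each called member. Adipoq, Hbb-bs, Hba-a1, Ckm, Acta1, the 5 dividing cell genes, Slc4a1, Epb42, Myh4, Gm5843 and Atp12a were added after their values were seen. So were Ascl2, Smoc2, Lgr5, Axin2, Clca1, Zg16, Tff3, Muc2, B3gnt6, Klk1 and Pnlip. Alternatives were other scalings and filters, DESeq2 1.42.0, limma-voom 3.58.1, a block for the replicate number, leaving out each library in turn, and pancreas genes or the 50 most abundant genes left out.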

Additional observations from a re-analysis of the deposited data

How the results depend on the processing

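The number of carbonic anhydrases past the threshold was 2, and 462 genes passed in all. With library totals in place of TMM the counts were 4 and 695. That scaling moved the median log2 fold change of all genes to -0.17, and 29.9% of its calls were higher in Esr2-KO, against 48.3% with TMM. Relative to that median no member changed direction. Without a low-count filter the counts were 5 and 1916, with DESeq2 5 and 1693, with limma-voom 4 and 606, and with 1 CPM in 2 libraries 1 and 457. Leaving out 1 library at a time gave 2 to 6 members and 165 to 1804 genes, the extremes for genes without WT 1 and without Esr2-KO 1, and 6 members without Esr2-KO 1. A fit with the lone sample of a group assumes that it varies like the other group. Reversed directions were those of Car9 without WT 1 (0.037) and of Car3 without WT 2 (0.20) and without Esr2-KO 2 (0.048); leaving out 1 library gave -0.29 to 0.037 for Car9 and -1.71 to 0.20 for Car3. Of all members, Car8 was called in every alternative run.

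The replicate number as a block gave 2 members and 490 genes, of which 343 were among the 462. Car1 was at -2.01 with an edgeR adjusted p of 0.0742 under the replicate block and Car13 at -1.08 with 0.0462, and the call of Slc16a7 ended (-1.04, 0.0653) and Slc9a3 passed (-1.84, 0.0234). Same-numbered libraries deviated with a correlation of -0.06 across genes, which cannot tell whether they share a litter, batch or day. The labels give no such link. Car1 is among the 50 most abundant genes and has no value where those were left out. Depth limits Car7 and the family genes with few counts, and n = 2 per group limits every p. The cause of these differences between settings was not tested.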

Other observations

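Atp12a, the proton and potassium pump of the distal colon, was the gene of the acid-base lists with the highest positive value. Its levels were 11.04 and 169 CPM in WT against 708 and 1025 in Esr2-KO, and the difference of 3.26 ± 1.07 (log2, SE) did not pass (edgeR adjusted p = 0.157). The WT libraries differed from each other in the same order as in the sum of posterior Hox genes, 99.5 and 201 CPM in WT against 811 and 921 in Esr2-KO. The sum of more anterior Hox genes was also higher in WT 2 than in WT 1, at 72.1 and 117 CPM in WT against 40.6 and 42.4 in Esr2-KO. The part of position along the colon in these values was not tested.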
